A study of Rattus norvegicus with 6 samples.

Results

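The genes described here mark macrophages and other myeloid cells: Cd68, Csf1r, Cd14, Cd163, Aif1, Tyrobp, C1qa, C1qb, C1qc and Mrc1. They were taken as every non-control probe whose accession maps to 1 of these 10 rat symbols, which gave 21 of the 61526 probes used and 10 of the 15277 symbols named on the array. They were measured in total RNA of the renal cortex of 6 male Sprague-Dawley (Crl:CD(SD)) rats, bought at 5 weeks of age. For 4 weeks the 3 vehicle animals were given corn oil and the 3 treated animals o-anthranilic acid, 1000 mg/kg each day, with 1 single-colour (Cy3) array per animal. o-Anthranilic acid is ortho-aminobenzoic acid, an aromatic acid that mammals also form from tryptophan. The labels describe the samples of a group as biological replicates. The comparison asks which cortical transcripts differ after the compound.

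Macrophages reside between the tubules of the kidney, where they clear dying cells and debris and sample filtered material. Their survival depends on the receptor Csf1r, whose ligand Il34 is made by the tubule epithelium itself. The C1q genes encode the 3 chains of the molecule that opens the classical complement pathway, and tissue macrophages are its main source. In bulk tissue, fewer cells of a type and less RNA per cell cannot be told apart.

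The C1q genes and Mrc1 had the lowest treated means relative to vehicle, and no member passed the test. All 9 tested members had a treated mean below the vehicle mean, by 0.02 to 0.45 on the log2 scale, and the median of their log2 fold changes was -0.17. Over all 30709 features tested the median was -0.01, and 51.4% had a log2 fold change below 0. limma with Benjamini-Hochberg adjustment called 0 of the 9 members and 0% of all features at the threshold of 0.05. Before adjustment, a p under 0.05 was reached by 1 member with a lower and 0 with a higher treated mean. Of all features, 1473 (4.8%) were lower and 1082 (3.52%) higher by the same rule. The adjusted p of the members ran from 0.555 to 0.976.

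The 3 C1q genes lie next to each other on rat chromosome 5 in the order C1qb, C1qc, C1qa. Their values varied together over the 6 arrays, as did those of several other members. The promoter windows that the RefSeq promoter table (build GRCr8) holds for C1qa and C1qb are shown. Each runs 5′ to 3′ on the strand of the gene, from 250 bases before to 50 bases after its start. Capitals mark matches, on either strand, to the PU.1 core GAGGAA, which reads TTCCTC on the opposite strand, or to the Maf half-site TGCTGA, which there reads TCAGCA. PU.1 and Maf proteins are transcription factors of macrophages.
C1qa, chr5:154419884-154420183, minus strand: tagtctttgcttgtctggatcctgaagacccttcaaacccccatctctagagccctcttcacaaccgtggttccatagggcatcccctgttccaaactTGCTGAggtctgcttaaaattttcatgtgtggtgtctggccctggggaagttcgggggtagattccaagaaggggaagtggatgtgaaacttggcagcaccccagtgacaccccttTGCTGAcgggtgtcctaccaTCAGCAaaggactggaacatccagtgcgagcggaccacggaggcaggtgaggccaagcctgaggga
C1qb, chr5:154407778-154408077, minus strand: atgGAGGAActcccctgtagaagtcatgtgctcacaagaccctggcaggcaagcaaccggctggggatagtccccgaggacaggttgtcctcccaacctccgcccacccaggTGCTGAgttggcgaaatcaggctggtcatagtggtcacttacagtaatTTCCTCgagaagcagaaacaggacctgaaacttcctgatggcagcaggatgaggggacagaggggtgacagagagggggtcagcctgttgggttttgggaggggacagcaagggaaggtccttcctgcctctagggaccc

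The C1qa window held 3 matches to the Maf half-site and 0 to the PU.1 core. The C1qb window held 1 match to the Maf half-site and 2 to the PU.1 core, at positions -247 and -90 from the start. Windows were found for 7 of the 10 members. The PU.1 core was present in 5 of these, those of Cd68, Csf1r, Cd14, C1qb and Mrc1, and in 27.6% of all 33469 windows of this length. The Maf half-site was present in 3 of the 7, those of Cd68, C1qa and C1qb, against 18.4% of all windows. The motifs do not overlap within the windows printed, and a match is a run of letters, not a measured binding site.

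Values below are normalised log2 signals: the log2 of a probe's processed signal minus the 75th percentile of that array, so that 0 stands for the brightness of that percentile. Probes differ in how well they hybridise, so levels are compared between arrays for 1 probe and never between genes. A gene was tested through its brightest probe among those well above background on at least 3 of the 6 arrays.

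C1qb (NM_019262), the B chain of C1q, had normalised log2 signals of 3.14, 3.22 and 3.31 in vehicle and 2.51, 3.03 and 2.91 in treated animals. The groups did not overlap, and treated replicate 1 was the lowest. The vehicle mean was 3.22 ± 0.09 (SD, n = 3) and the treated mean 2.82 ± 0.27 (SD, n = 3). The log2 fold change was -0.41 ± 0.15 (SE), or 1.33-fold lower. Its 95% interval ran from -0.76 to -0.05, with a limma adjusted p of 0.555. C1qb was the 1 member of 9 whose groups did not overlap, where 8.13% of all features had every treated array below every vehicle array and 6.51% had every one above. Its other probe stood at 3.11, 3.03 and 3.20 in vehicle and at 2.50, 3.11 and 2.82 in treated animals. On that probe treated replicate 2 lay within the vehicle range, so the groups overlapped, and the log2 fold change was -0.31 ± 0.16 (SE).

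C1qc (NM_001008524), the C chain, had normalised log2 signals of 0.22, 0.10 and 0.48 in vehicle and -0.44, 0.18 and 0.04 in treated animals. Treated replicate 2, the array alone on its slide, lay between the vehicle arrays, so the groups overlapped. The difference in means was -0.34 ± 0.19 (SE), with a 95% interval from -0.80 to 0.12 and a limma adjusted p of 0.675. The second C1qc probe, at -1.26, -1.48 and -1.12 in vehicle and -2.12, -1.57 and -1.48 in treated animals, had a log2 fold change of -0.44 ± 0.19 (SE).

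C1qa (NM_001008515), the A chain, had normalised log2 signals of 1.86, 1.69 and 2.11 in vehicle and 1.19, 1.85 and 1.83 in treated animals. Treated replicates 2 and 3 lay inside the vehicle range and replicate 1 below it. Its log2 fold change was -0.26 ± 0.21 (SE), with a 95% interval from -0.77 to 0.25 and a limma adjusted p of 0.766, and the second probe stood at -0.28 ± 0.18 (SE).

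Treated replicate 1 was the lowest array on 6 of the 6 C1q probes. Relative to the vehicle mean, the mean of the 3 C1q genes was -0.70 on that array, -0.11 on treated replicate 2 and -0.20 on treated replicate 3. The vehicle arrays stood at -0.05, -0.12 and 0.17. Without treated replicate 1 the log2 fold changes were -0.25 for C1qb, -0.16 for C1qc and -0.05 for C1qa. Without treated replicate 2, the array alone on its slide, they were -0.51, -0.47 and -0.37 in the same order. Treated replicate 1 was also the array with the smallest share of probes well above background, 63.7% against 64.7% to 69.3% on the others, and the part of this in the C1q values was not tested.

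**Figure D1:**
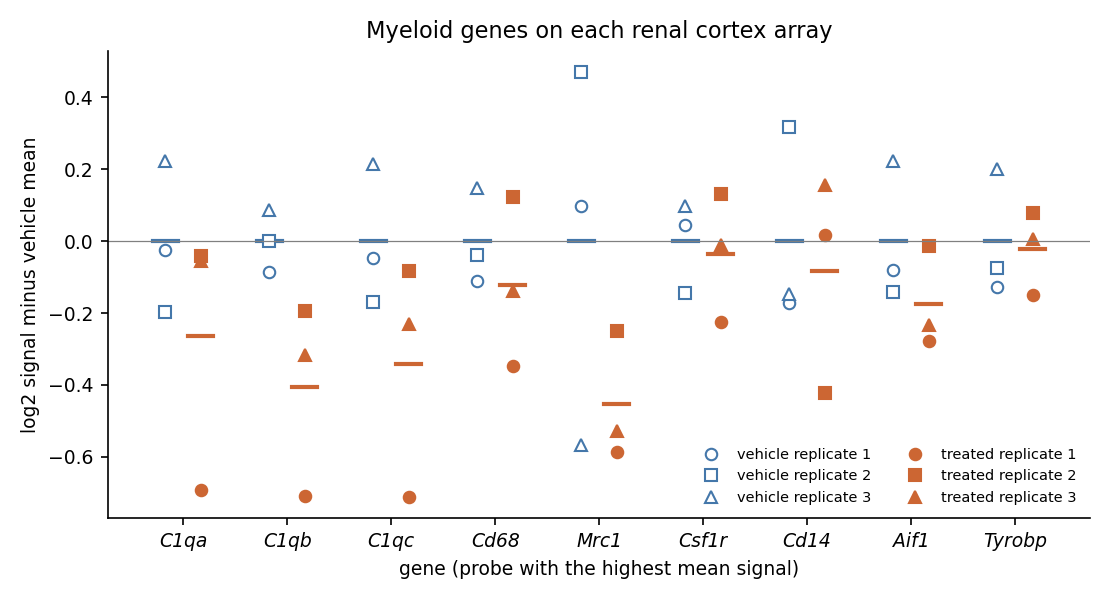
Normalised log2 signal of the 9 tested myeloid genes on each array, minus the vehicle mean of that gene; open blue symbols are vehicle and filled orange symbols treated arrays, shapes give the replicate, and bars are group means. Treated replicate 1 (circle) stands near -0.70 for the 3 C1q genes, while the other treated arrays lie between -0.32 and -0.04.

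**Figure D2:**
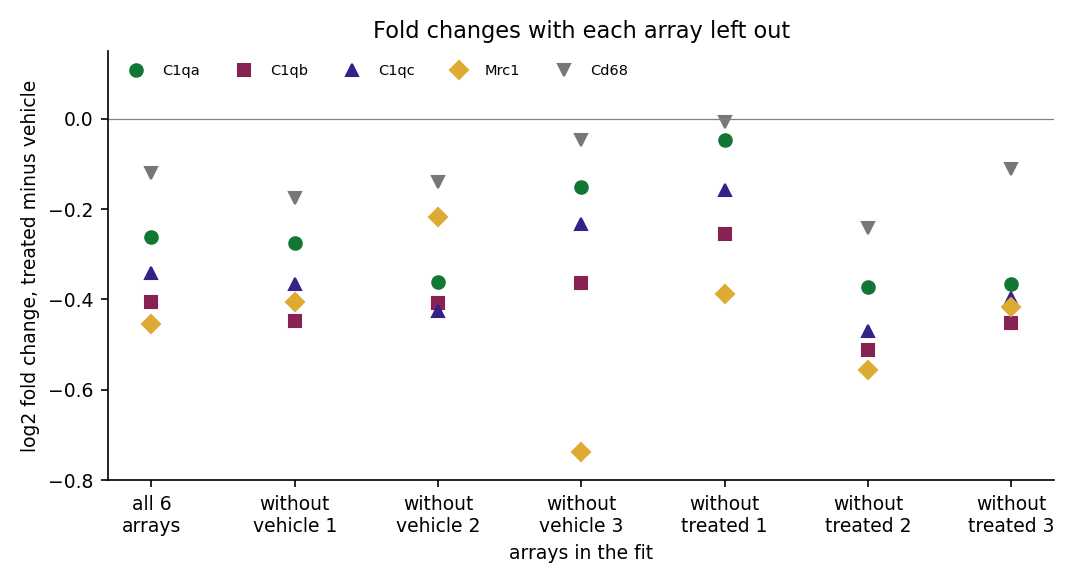
Log2 fold change (treated minus vehicle) of C1qa, C1qb, C1qc, Mrc1 and Cd68 with all 6 arrays and with each array left out in turn. Without treated replicate 1 the C1q values move towards 0, to -0.25 for C1qb and -0.05 for C1qa, and Mrc1 ranges from -0.74 to -0.22.

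Among the scavenger receptors, Mrc1 (NM_001106123), the mannose receptor of tissue macrophages, had normalised log2 signals of -2.45, -2.08 and -3.11 in vehicle and -3.13, -2.80 and -3.07 in treated animals. Vehicle replicate 3 stood with the treated arrays, and the groups overlapped. Mrc1 differed by -0.45 ± 0.27 (SE) on the log2 scale, with a 95% interval from -1.10 to 0.19 and a limma adjusted p of 0.692. It was -0.22 without vehicle replicate 2 and -0.74 without vehicle replicate 3. The second Mrc1 probe was well above background on 2 vehicle arrays and 1 treated array, and its log2 fold change was -0.63 ± 0.38 (SE).

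Cd163 (NM_001107887), the haemoglobin scavenger receptor of resident macrophages, had 3 probes, of which 0 were well above background on any array. Their normalised log2 signals lay between -8.14 and -7.12 in vehicle and between -8.09 and -7.28 in treated animals. The dimmest probe called well above background on an array lay between -6.08 and -5.26. Cd163 was therefore not tested, no fold is given, and this defining marker was not measurable on these arrays.

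Cd68 (NM_001031638), a lysosomal glycoprotein of phagocytes, had normalised log2 signals of 0.56, 0.63 and 0.82 in vehicle and 0.32, 0.79 and 0.53 in treated animals. The groups overlapped, with treated replicate 1 lowest and treated replicate 2 near the top of the vehicle range. Its log2 fold change was -0.12 ± 0.14 (SE), with a 95% interval from -0.46 to 0.22, and -0.01 without treated replicate 1. The second probe gave -0.10 ± 0.14 (SE).

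Of the signalling receptors, Csf1r (NM_001029901), on which macrophage survival depends, stood at -1.38, -1.57 and -1.33 in vehicle and at -1.65, -1.30 and -1.44 in treated animals. The groups overlapped, and the log2 fold change was -0.04 ± 0.12 (SE), with a 95% interval from -0.33 to 0.26. Its sign turned without treated replicate 1, to 0.06, and without vehicle replicate 3, to 0.01. The second Csf1r probe stood between -1.93 and -1.89 in vehicle and between -2.04 and -1.89 in treated animals, the narrowest vehicle range among the tested member probes.

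Cd14 (NM_021744), the co-receptor for bacterial lipopolysaccharide, had normalised log2 signals of -0.61, -0.12 and -0.58 in vehicle and -0.42, -0.86 and -0.28 in treated animals. The highest array was vehicle replicate 2 and the lowest treated replicate 2, and the groups overlapped. The log2 fold change was -0.08 ± 0.20 (SE), with a 95% interval from -0.57 to 0.41, and it was 0.09 without treated replicate 2 and 0.08 without vehicle replicate 2. Its second probe had the opposite sign, at 0.05 ± 0.29 (SE), the 1 of 18 tested member probes above 0.

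Tyrobp (NM_212525), the adaptor that carries signals from activating receptors of myeloid cells, stood at 3.10, 3.15 and 3.43 in vehicle and at 3.08, 3.31 and 3.23 in treated animals. The groups overlapped, and the log2 fold change was -0.02 ± 0.12 (SE), the value nearest to 0 among the 9 members, with a 95% interval from -0.31 to 0.26. It was 0.04 without treated replicate 1 and 0.08 without vehicle replicate 3.

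Aif1 (NM_017196), which encodes the calcium-binding protein Iba1 of macrophages and microglia, stood at 3.23, 3.17 and 3.53 in vehicle and at 3.03, 3.30 and 3.08 in treated animals. Treated replicates 1 and 3 lay below all vehicle arrays and replicate 2 inside their range. The log2 fold change was -0.17 ± 0.13 (SE), with a 95% interval from -0.49 to 0.14. The other probes of Aif1 gave -0.12 ± 0.14 (SE) and -0.23 ± 0.15 (SE).

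**Figure D3:**
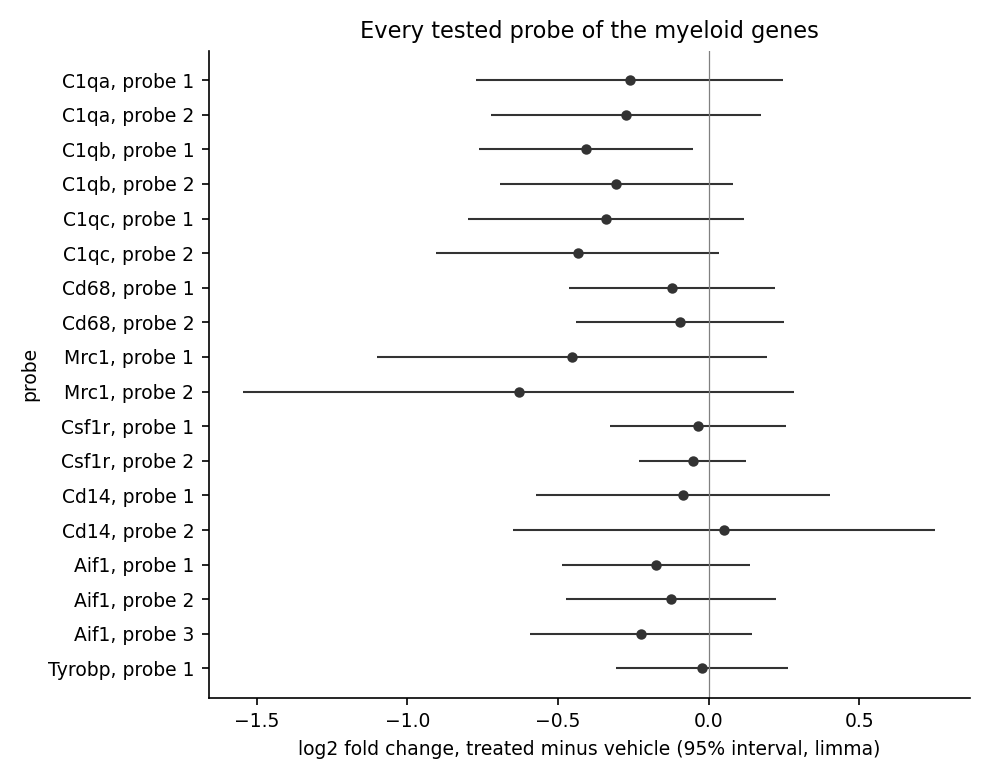
Log2 fold change (treated minus vehicle, points) with its 95% interval from limma (bars) for the 18 tested probes of the 9 members, numbered by brightness within a gene. The interval of C1qb probe 1, from -0.76 to -0.05, is the one that leaves out 0 before adjustment over all features.

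Treated replicate 1 was the lowest of the 6 arrays for 8 of the 9 tested members, where 15.8% of all features were lowest on that array. The exception was Cd14. Vehicle replicate 3 was the highest for 6 of the 9, namely Cd68, Aif1, Tyrobp, C1qa, C1qb and C1qc. Over the 6 arrays, which hold both groups, Pearson's r was 0.97 between C1qa and C1qc, 0.93 between C1qb and C1qc and 0.86 between C1qa and C1qb. Other pairs reached similar values, at 0.89 for Cd68 and C1qc, 0.87 for Csf1r and C1qa and 0.86 for Cd68 and Aif1. Mrc1 ranged from -0.39 with Tyrobp to 0.48 with C1qb. Cd14 had r below 0 with 7 of the other 8 members and 0.31 with Mrc1. These correlations rest on 6 points that share array and treatment and are given as a description.

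The genes whose values over the 6 arrays were most like the mean of the members were Lrrc10b, Dgcr6, Pimreg, Ptpn22 and Dlk2, with Pearson's r of 0.99, 0.99, 0.97, 0.97 and 0.97. They were ranked among 3583 named genes with an SD over arrays of at least 0.2, of which 1.54% had r above 0.9. Ptpn22 (NM_001106460) encodes a phosphatase of leukocytes. It stood at -1.06, -0.11 and -0.32 on the treated arrays relative to its vehicle mean. None of these genes, Ptpn22 included, is on the leukocyte lists used here. On treated replicate 1 Lrrc10b stood at -0.67, Dgcr6 at -0.51, Pimreg at -1.62 and Dlk2 at -1.35. The members' mean that ranked these genes was itself lowest on that array, at -0.41, so their low values there follow from the ranking.

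The other lists described the partners of the members, and 0 of their genes passed limma's adjusted threshold. With each array left out in turn, the medians of 11 of these 17 lists turned sign at least once. Of 21 other macrophage surface genes, 14 were tested, 11 of them with a log2 fold change below 0, and the list median was -0.09. It was 0.02 without treated replicate 1 and -0.26 without treated replicate 2. Folr2 (NM_001106283), a folate receptor of resident macrophages, stood at -0.58, -0.70 and -0.54 in vehicle and -1.27, -0.72 and -1.12 in treated animals. The treated arrays all lay below the vehicle arrays, narrowly for replicate 2, and the log2 fold change was -0.43 ± 0.15 (SE), at a limma adjusted p of 0.552. Cx3cr1 (NM_133534), the fractalkine receptor of monocytes and macrophages, stood at -1.15, -1.26 and -1.35 in vehicle and at -0.73, -1.08 and -0.71 in treated animals. All treated arrays lay above the vehicle arrays, and the log2 fold change was 0.42 ± 0.13 (SE), at a limma adjusted p of 0.511. Another probe of Cx3cr1, not used in the test, stood at -0.08. The lowest value of the list, named after it was seen, was that of Siglec1, the sialic acid receptor sialoadhesin, at -0.97 ± 0.45 (SE). Vehicle replicate 1 stood highest, at -2.81, against -4.11 and -4.04 on the others of its group, while the treated arrays stood at -5.22, -4.02 and -4.61. The groups overlapped, and the probe was well above background on 3 vehicle arrays and 2 treated arrays. The probes of Itgam, Ccr2, Marco, Vsig4 and Cd5l, also macrophage or monocyte genes, were too dim to be tested.

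For the axis of Csf1r, 11 of 11 listed genes were tested, 5 of them above 0, with a median log2 fold change of -0.02. They were ligands and transcription factors, and also the receptor subunits Csf2ra and Csf2rb, which stood at 0.21 and 0.07. The ligands Csf1 and Il34 had log2 fold changes of 0.12 ± 0.14 (SE) and 0.13 ± 0.10 (SE). Another probe of Csf1, not used in the test, had the opposite sign, at -0.03. Maf, a transcription factor of resident macrophages that other renal cells also express, stood at 2.83, 2.09 and 2.37 in vehicle and 2.00, 1.68 and 2.12 in treated animals. The groups overlapped through treated replicate 3, and the log2 fold change was -0.49 ± 0.21 (SE), at a limma adjusted p of 0.609. Csf2ra, a subunit of the receptor for granulocyte-macrophage colony-stimulating factor, ranged from 2.03 to 2.09 in vehicle and from 2.14 to 2.40 in treated animals. The groups did not overlap, and the log2 fold change was 0.21 ± 0.09 (SE), at a limma adjusted p of 0.606. Csf1 and Il34 were named as the ligands of Csf1r, after their values were seen.

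Of the partners of Cd14 in lipopolysaccharide sensing, 7 of 10 were tested, with a median log2 fold change of -0.01. Tlr4 (NM_019178), the receptor that takes lipopolysaccharide from Cd14, stood at -2.68, -2.53 and -2.61 in vehicle and at -2.89, -2.81 and -2.86 in treated animals. The groups did not overlap, and the log2 fold change was -0.25 ± 0.07 (SE), at a limma adjusted p of 0.507. Tlr2 had a log2 fold change of 0.15 ± 0.12 (SE).

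Of the partners of Tyrobp, 11 of 13 were tested, with a median of -0.04. Plcg2, a phospholipase downstream of such adaptors, stood at -0.21 ± 0.07 (SE), and Fgr, a Src-family kinase of myeloid cells, at 0.24 ± 0.12 (SE). The treated arrays of Plcg2 all lay below its vehicle arrays, and the groups overlapped for Fgr. Of the haemoglobin clearance genes around Cd163, 7 of 7 were tested, with a median of 0.02. Slc40a1, the iron exporter ferroportin, stood at 0.26 ± 0.10 (SE) and Hmox2, a haem oxygenase, at -0.09 ± 0.07 (SE). The list mean relative to vehicle was 1.05 on treated replicate 3 and -0.05 and 0.05 on the other treated arrays. That array alone was high for Hmox1, the inducible haem oxygenase, at 5.10 against -1.56 to -1.42 on the others, a value named after it was seen.

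Of 10 genes listed beside the C1q genes, 9 were tested, 5 of them above 0, with a median of 0.01. The list held complement genes and also C1qbp, Calr and Cd93, and its median was the value of C1qbp. Of the tested complement genes, C4a, C2 and C3 were below 0, at -0.23, -0.22 and -0.13. Serping1, C1s and C1r were above 0, at 0.04, 0.12 and 0.20. The 3 C1q genes stood between -0.41 and -0.26. C4a, a complement component that C1 cleaves through C1s, ranged from 4.04 to 4.30 in vehicle and from 3.93 to 4.02 in treated animals. The groups did not overlap by a narrow margin, and the log2 fold change was -0.23 ± 0.10 (SE), at a limma adjusted p of 0.605. C1r, a protease of the C1 complex, stood at 0.20 ± 0.20 (SE).

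Lysosomal genes of phagocytes had a median log2 fold change of -0.12, with 10 of 11 below 0 and 4 whose treated arrays all lay below the vehicle arrays, a pattern that 8.13% of all features had. Cd63, a membrane protein of lysosomes, stood at -0.21 ± 0.09 (SE) and Lgals3, a lectin of macrophages, at 0.08 ± 0.22 (SE). These genes are also expressed by tubule cells. Monocyte recruitment genes had a median of -0.07 over 9 tested, or 0.06 without treated replicate 1, with the chemokines Cxcl12 at 0.24 ± 0.10 (SE) and Ccl4 at -0.41 ± 0.21 (SE). The treated arrays of Cxcl12 all lay above its vehicle arrays, and its other probes stood at 0.31 and 0.49. The other probe of Ccl4 stood at -0.425. Macrophage activation genes had a median of 0.10 over the 7 of 14 that were bright enough, with Chi3l1, a chitinase-like protein, at 0.42 ± 0.19 (SE) and Nos2, the inducible nitric oxide synthase, at -0.08 ± 0.10 (SE).

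**Figure D4:**
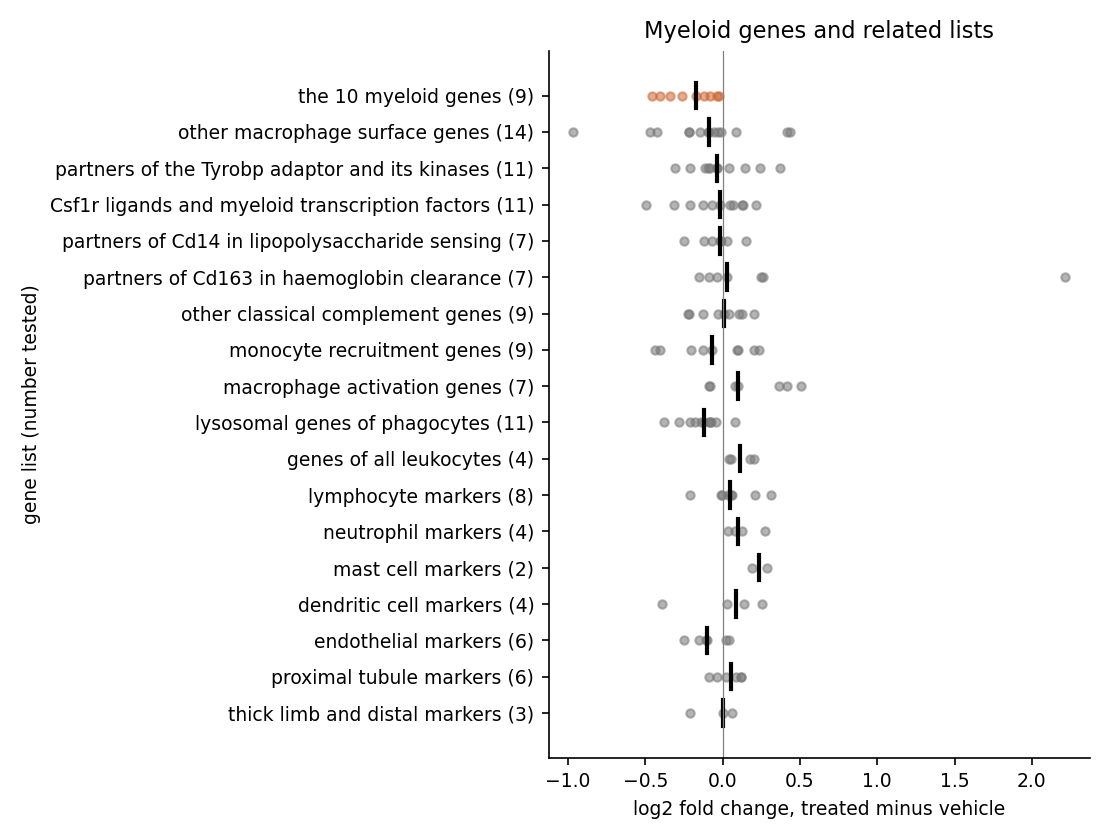
Log2 fold change (treated minus vehicle) of every tested gene of the 10 myeloid markers (orange) and of the related lists (grey), with the list median as a black bar and the number tested in brackets. The myeloid median is -0.17 and the other medians lie between -0.12 and 0.24, with the Hmox1 point at the far right of the haemoglobin clearance list.

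The leukocyte lists had medians above 0, and those of 4 of these 5 lists turned below 0 with 1 array left out. All 4 genes carried by all leukocytes, Ptprc, Coro1a, Laptm5 and Lcp1, had log2 fold changes above 0, with a median of 0.11, and Coro1a, an actin-binding protein, stood at 0.20 ± 0.14 (SE). Their mean relative to vehicle was -0.17, 0.36 and 0.17 on the treated arrays. Without treated replicate 2 their median was -0.01, while that of the members was -0.25. Lymphocyte markers had a median of 0.04 over 8 tested and treated list means of -0.55, 0.54 and 0.18, again with replicate 1 lowest. Their median was 0.41 without treated replicate 1 and -0.14 without treated replicate 2. Of these, Cd2 stood at 0.31 ± 0.25 (SE) and Cd3e at -0.21 ± 0.75 (SE), the latter well above background on 3 vehicle arrays and 1 treated array. Neutrophil markers had a median of 0.10 over 4 tested, with S100a8 at 0.28 ± 0.27 (SE) and treated list means of 0.53, -0.40 and 0.25. Their median was the other way round, at -0.06 without treated replicate 1 and 0.37 without treated replicate 2. Mast cell markers had a median of 0.24 over 2 tested and dendritic cell markers of 0.08 over 4 (-0.01 without treated replicate 3), with Kit at 0.19 ± 0.19 (SE), Clec9a at 0.25 ± 0.16 (SE) and Ccr7 at -0.39 ± 0.25 (SE). Another probe of Kit, not used in the test, stood at 0.02. The part of other leukocytes in the values of the members was not tested.

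Renal markers were compared between the groups in the same way, which does not check the tissue label. All 6 proximal tubule markers were tested, with a median log2 fold change of 0.05. Their means on the treated arrays differed from the vehicle mean by 0.01 to 0.06. Among these markers Slc5a2 stood at 0.12 ± 0.08 (SE) and Aqp1 at -0.09 ± 0.10 (SE). Endothelial markers, with a median of -0.10 over 6, had Pecam1 at -0.11 ± 0.08 (SE) and Kdr at 0.04 ± 0.08 (SE). Of the distal markers Aqp2 stood at -0.21 ± 0.10 (SE) and Slc12a3 at 0.06 ± 0.11 (SE), with a median of 0.00 over 3 tested. That median was -0.13 with probes averaged per gene, -0.19 over every probe and -0.22 without vehicle replicate 2. The other probes of Slc12a3, not used in the test, had the opposite sign, at -0.25 and -0.21. The treated arrays of Aqp2 all lay below its vehicle arrays, and its other probe stood at -0.19.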

How the data were processed

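The submitters' processing notes name Agilent Feature Extraction 10.7. Scanner files, as deposited, hold intensity on a linear scale, background-subtracted and detrended within the array but not normalised between arrays, per the file headers. The value table deposited by the authors gives each probe as a ratio of the processed signal to the array's 75th percentile, found by comparison with the scanner files; its replicate numbers 1, 2 and 3 matched scanner files 3, 1 and 2 of each group. Replicates are named by scanner file.

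Of 61657 non-control probes, 84 named for RNA controls and 47 flagged as outliers by the scanner were removed, and 0 were saturated. Accessions were matched to RefSeq symbols (GRCr8), which named 27435 probes. The array design uses rn4, so no array coordinates are given. The log2 processed signal minus each array's 75th percentile was filtered (3 or more of 6 arrays well above background), reduced to the brightest probe per gene, and fitted with limma 3.58.1 in R 4.3.3 (lmFit, eBayes, Benjamini-Hochberg over 30709 features, threshold 0.05). The probe-wise values come from the same fit over 41551 probes. The fit was tested on simulated data whose planted changes were larger than those of the members. Its power for changes of their size was not tested. data.table (version 1.17.8) and jsonlite 2.0.0 read the files. Log2 fold changes had a median standard error of 0.11, and the number of arrays limited the precision. Treated replicate 2 was alone on its slide.

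Members and lists were chosen with earlier results of these data known. Named genes were the members, the gene with the smallest p in each direction of each list, and the 5 genes most like the members' mean. The podocyte marker list is not reported here. Other named genes were chosen after their values were seen. Alternatives were other background correction, scaling, filter, probe, variance and block choices, and each array left out.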

Additional observations from a re-analysis of the deposited data

How the results depend on the processing

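The count of members past the threshold was 0 under all 19 other settings, as was that of member probes and of genes on the related lists. The median log2 fold change of the members ranged from -0.25 to -0.12 over them, the lowest without treated replicate 2 and the highest without treated replicate 1. Aif1, C1qa, C1qb, C1qc, Cd68 and Mrc1 stayed below 0 in the 18 settings that gave 1 value per gene. The sign turned for Cd14 with the slide as a block and on the slide that holds both groups alone (0.086 each, the same fit as leaving out treated replicate 2). With 1 array left out, Cd14 ranged from -0.20 to 0.086, Csf1r from -0.12 to 0.060 and Tyrobp from -0.085 to 0.080. The cause was not tested. Over all features the count past the threshold, 0 in the fit reported, was 5 with normexp background correction, 5 with trend and robust options in eBayes, 2 with probes averaged per gene, 1 with the filter of all 6 arrays, 3 with the slide as a block and 3 on the slide that holds both groups alone. It ranged from 0 to 3 with 1 array left out. Same-numbered samples did not deviate together (correlations 0.02, -0.04 and -0.02). These correlations cannot show whether the animals were paired by design. With the replicate block the members' median was -0.17 and 0 members and 0 features passed. Dim probes limit Cd163 and the second Mrc1 probe.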
